A study of Mus musculus with 9 samples.

Results

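The kinesin motor genes were the 38 protein-coding genes of the count tables whose mouse symbol is Kif followed by a number and an optional letter, out of 21974 protein-coding genes and 56262 genes in all. They were described in cells labelled long-term hematopoietic stem cells (LT-HSCs), the rare marrow cells that sustain blood formation. By their textbook roles, 12 genes were placed among the mitotic kinesins, 13 among the transport kinesins, and 13 with ciliary, signalling, microtubule-shaping or little known roles among the other kinesins. RNA came from wild-type C57BL/6 mice in 3 groups of 3 libraries. 5-FU+FMT mice were given 5-fluorouracil (5-FU), which is toxic to cells that copy their DNA, at a dose of 250 mg/kg. FMT, which the labels leave as an abbreviation, followed at 5 mg/kg into a vein on days 1, 4 and 7. 5-FU+Saline mice received the same 5-FU dose and then saline, which the series text calls PBS. Control mice were untreated. The treated mice were killed on day 8. The sort is written as lineage-negative, Sca1+, c-Kit+, CD150+ and C48-. The labels give neither the sex nor the age of the mice, nor whether a library held 1 mouse or several, so p-values measure the spread between these libraries, which may be technical.

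Kinesins are motor proteins that burn ATP on microtubules, the hollow tracks of the cell. Transport kinesins walk along these tracks with vesicles, endosomes, mitochondria or ciliary parts as cargo, whereas mitotic kinesins slide, cross-link or shorten the microtubules of the spindle, move chromosomes and help to part the daughter cells. RNA of mitotic kinesins is made mostly late in the cell cycle and is therefore commonly read as a sign of dividing cells, while most transport kinesins are made at all stages of the cycle. In adult marrow, most LT-HSCs rest outside the cycle.

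Total counts were between 11098031 and 19270976 per library, and 22813 to 24237 genes had a count. Genes of other cells moved with the groups. The summed level of 7 B lineage markers was between 349 and 390.1 CPM (counts scaled to the TMM-adjusted depth of the library) in 5-FU+FMT, 762.5 and 778 in 5-FU+Saline and 50.9 and 52.0 in Control. For 8 stromal markers the sums were 49.2 to 52.7, 239 to 247 and 2.93 to 4.55 CPM in the same order of groups, and Col6a1, one of them, had no count in Control. Sums of 5 granule genes of neutrophil precursors ran the other way. They were 869 to 986 CPM in 5-FU+FMT, 125 to 136 in 5-FU+Saline and 2312 to 2351 in Control. So did 8 erythroid markers, with 339 to 360, 183 to 186 and 629 to 635 CPM. Single erythroid markers moved unevenly, with log2 fold changes between -7.81 and -0.30 (median -6.53) in 5-FU+Saline against Control. In 5-FU+FMT against 5-FU+Saline, theirs lay between -0.06 and 6.19 (median 5.22). Sums of 5 late neutrophil genes followed the B lineage order, at 19.8 to 23.5, 31.4 to 40.1 and 8.89 to 12.6 CPM. The 11 LT-HSC markers were all detected and summed to 1632 to 1681, 1362 to 1374 and 2084 to 2102 CPM. The X-linked Xist, made in female cells, stood at 682 ± 19.8, 1201 ± 20.2 and 0.87 ± 0.42 CPM (SD, n = 3 each), and the Y-linked Eif2s3y, made in male cells, at 63.4 ± 2.37, 29.2 ± 1.45 and 104 ± 1.69 CPM in 5-FU+FMT, 5-FU+Saline and Control. Every library of both 5-FU groups held both RNAs, so its cells may come from mice of both sexes. The mix of both RNAs differed along with the treatment, so sex and treatment cannot be told apart here. The part of these differences in the results below was not tested. In bulk RNA, fewer cells of a type and less RNA per cell cannot be told apart.

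Of the 38 kinesin genes, 31 had enough counts to be tested: 11 mitotic, 12 transport and 8 other. Kif2b, a mitotic microtubule depolymerase, and Kif12 had no count in any library. Kif26b had 63 counts over the 9 libraries, Kif26a 52, Kif27 46, Kif1a 22 and Kif28 18. Kif26a had 8, 16 and 3 counts in 5-FU+FMT libraries, 5, 13 and 6 in 5-FU+Saline and 1, 0 and 0 in Control. Kif1a, a carrier of synaptic vesicle precursors in neurons, had 2, 1 and 0 counts, 8, 2 and 8, and 1, 0 and 0 in the same groups. No test was made on these 7 genes.

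Levels per kilobase of exon (RPKM) set the tested members in order. In 5-FU+FMT, Kif11 led with 30.2 ± 0.95 RPKM, ahead of Kif5b with 24.5 ± 0.66 and Kif22 with 21.0 ± 0.88. In 5-FU+Saline, the order at the top was the same, with 37.0 ± 0.49 RPKM for Kif11, 28.3 ± 0.69 for Kif5b and 25.7 ± 0.83 for Kif22. In Control, Kif5b with 19.0 ± 0.49, Kif21b with 18.4 ± 0.66 and Kif11 with 17.7 ± 0.31 RPKM followed one another within the sum of their SDs (n = 3 in each group). A mitotic motor thus topped both 5-FU groups, whereas in Control a transport motor, a microtubule-shaping one and a mitotic one stood close together.

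Added up per kilobase, the mitotic kinesins made 58.7% ± 0.42 of all kinesin RNA in 5-FU+FMT, 63.1% ± 0.40 in 5-FU+Saline and 46.8% ± 0.32 in Control. The share of the transport kinesins was 28.5% ± 0.06, 25.6% ± 0.36 and 35.4% ± 0.20 in the same groups, and that of the other kinesins 12.8% ± 0.38, 11.3% ± 0.14 and 17.9% ± 0.40 (SD, n = 3 each). The summed levels show that the mitotic class moved most. Mitotic kinesins reached 156 ± 0.89 RPKM in 5-FU+FMT, 190 ± 1.42 in 5-FU+Saline and 96.3 ± 2.98 in Control. Transport kinesins stood at 75.5 ± 0.25, 76.8 ± 1.39 and 72.9 ± 2.33 RPKM, and the other kinesins at 33.9 ± 1.07, 33.9 ± 0.30 and 36.8 ± 0.48 RPKM. In CPM, which does not adjust for length, the other kinesins summed to 287 ± 8.82, 274 ± 3.93 and 336 ± 7.37. No p-value is given for these sums, which add up chosen members.

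**Figure D1:**
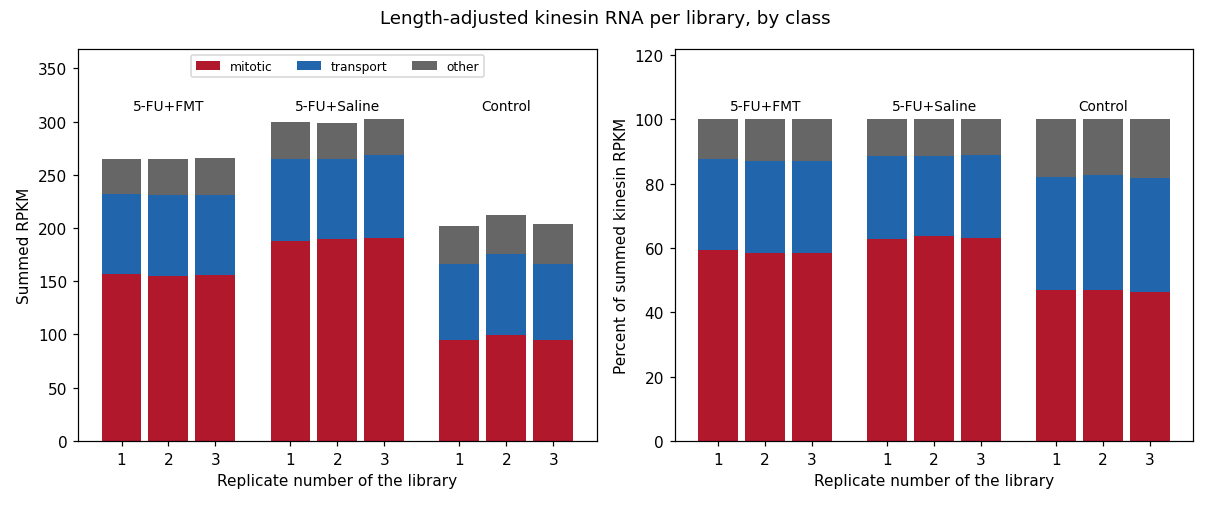
Stacked bars of the summed mitotic, transport and other kinesins in each library, in RPKM (left) and as a percentage of all kinesin RPKM (right), for 5-FU+FMT, 5-FU+Saline and Control. The mitotic sum lies near 156 in 5-FU+FMT, 190 in 5-FU+Saline and 96.3 in Control, while the transport and other sums stay within a narrow band across the 3 groups.

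The comparison of 5-FU+Saline with Control asked what the kinesins looked like after the drug. Among the mitotic kinesins, 11 of 11 were higher in 5-FU+Saline at a Benjamini-Hochberg adjusted p under 0.05 in edgeR's quasi-likelihood test, the rule for every call here. Over all 16595 genes tested, 32.8% were higher and 32.7% lower by this rule, or 65.5% called, as were all but 5 of the 31 tested kinesins. The log2 fold changes of the mitotic kinesins ran between 0.36 and 1.34 with a median of 1.01, against a median of -0.02 over all genes, and 6 were higher by at least 2-fold, as were 6.51% of all genes. Of the 12 transport kinesins, 3 were higher and 5 lower, with a median of -0.05. Of the 8 others, 3 were higher and 4 lower, with a median of -0.34. Kif5a, Kif19a and Kif6 were lower by at least 2-fold, as were 11.2% of all genes. Libraries did not overlap between both groups for 11 mitotic, 8 transport and 6 other kinesins, and for 67.8% of all genes.

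The motors that build the spindle come first. Kif11, which pushes the spindle poles apart and lies on chr19:37376403-37421859 (mm10), had 272, 276 and 279 CPM in 5-FU+Saline libraries, against 129, 134 and 133 CPM in Control libraries. Every 5-FU+Saline library lay far above every Control library. The fitted difference was 1.06 ± 0.03 on the log2 scale (SE), or 2.09-fold, with an adjusted p of 3.38e-42 in edgeR. Kif15, a partner that helps to keep the spindle bipolar, averaged 150.3 ± 6.02 CPM in 5-FU+Saline and 75.0 ± 5.28 in Control, a log2 difference of 1.01.

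Motors that handle chromosomes and microtubule ends included the largest rises. Kif2c, a depolymerase that frees wrongly attached chromosomes, had 68.7, 61.3 and 65.2 CPM in 5-FU+Saline, against 27.7, 26.0 and 23.8 CPM in Control. The groups were far apart, and its 2.53-fold difference (log2 1.34 ± 0.07, adjusted p 1.44e-29 in edgeR) was the largest rise among the tested kinesins. Kif4, a motor on condensed chromosomes encoded on the X chromosome, averaged 74.8 ± 1.82 CPM in 5-FU+Saline and 31.0 ± 1.97 in Control, a 2.42-fold difference. Exons of Pdzd11 on the other strand cover 15.1% of its exon bases, and the count tables were made without strand, so that its reads cannot be fully told apart from those of Pdzd11. Kif22, which pushes chromosome arms towards the spindle equator, averaged 126 ± 4.06 and 63.5 ± 4.44 CPM. Kif18b, which shortens the microtubules that reach from the poles to the cell cortex, averaged 68.4 ± 2.56 and 36.3 ± 3.72 CPM. Their log2 differences were 1.00 and 0.92.

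Among the motors that finish division, Kif20a, which brings the Aurora B complex to the middle of the spindle, averaged 87.7 ± 2.99 CPM in 5-FU+Saline and 37.3 ± 1.60 in Control, a log2 difference of 1.24. For Kif20a, 29.3% of exon bases are shared with Cdc23 on the other strand. Kif20b, needed late in the cut between daughter cells, had a log2 difference of 1.01, and Kif14, which brings citron kinase to the midbody, one of 0.79. Their averages were 135 ± 4.31 and 66.6 ± 2.16 CPM in 5-FU+Saline, against 67.0 ± 2.56 and 38.9 ± 3.50 CPM in Control.

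A pair of mitotic motors rose less than the rest. Kif23, which bundles microtubules of the central spindle together with Racgap1, had 136, 133 and 132 CPM in 5-FU+Saline, against 106, 107 and 101 CPM in Control. The groups did not overlap, yet the log2 difference was 0.36 ± 0.04 (adjusted p 1.22e-11 in edgeR), against 1.18 ± 0.04 for its partner Racgap1. Kif18a, which dampens the swings of chromosomes at the spindle equator, had 24.5, 28.7 and 25.7 CPM in 5-FU+Saline, against 19.3, 17.6 and 19.6 CPM in Control, a log2 difference of 0.48 ± 0.09 with an adjusted p of 3.99e-06 in edgeR. Its groups were also apart, at a low level. Set beside Kif11 in the same library, Kif23 counts were 47.4 to 50.04% of Kif11 counts in 5-FU+Saline and 76.1 to 81.6% in Control, and Kif18a counts were 9.02 to 10.4% and 13.2 to 14.9%. The ratio to Kif11 was chosen after these values were seen, so it carries no test.

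The promoters of the mitotic kinesins are shown here because their genes moved together. RefSeq promoter stretches (GRCm38.p6, 250 bases before to 50 after a start site) were matched for 31 of the 38 members, with 11 mitotic, 10 transport and 10 other genes among them. The letters TTTGAA are the core of the cell cycle genes homology region (CHR), through which cell cycle genes are known to be held down in resting cells, and CCAAT is the motif of the factor NF-Y. Both were searched on both strands, and the motifs can share a base at their ends, though no printed match of one touches the other. Stretches from 130 bases before to 30 after the start site follow, 5′ to 3′ on the gene's strand, with TTTGAA and CCAAT or their reverse complements TTCAAA and ATTGG in capitals. Kif11 (chr19:37376252-37376411 on the plus strand), Kif22 (chr7:127042391-127042550 on the minus strand), Kif18b (chr11:102925095-102925254 on the minus strand), Kif23 (chr9:61946770-61946929 on the minus strand) and Kif20b (chr19:34922228-34922387 on the plus strand) are mitotic genes with TTTGAA near the start. Kif18a (chr2:109280608-109280767 on the plus strand), the mitotic gene with one of the smallest rises, and the transport gene Kif3b (chr2:153291286-153291445 on the plus strand) are set against them.
Kif11: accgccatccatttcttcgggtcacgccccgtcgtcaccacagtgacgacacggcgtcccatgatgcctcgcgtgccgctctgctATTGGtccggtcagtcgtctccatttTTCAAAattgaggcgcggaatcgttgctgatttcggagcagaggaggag
Kif22: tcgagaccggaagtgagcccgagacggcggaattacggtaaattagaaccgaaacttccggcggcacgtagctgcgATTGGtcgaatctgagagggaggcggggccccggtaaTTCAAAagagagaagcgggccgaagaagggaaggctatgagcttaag
Kif18b: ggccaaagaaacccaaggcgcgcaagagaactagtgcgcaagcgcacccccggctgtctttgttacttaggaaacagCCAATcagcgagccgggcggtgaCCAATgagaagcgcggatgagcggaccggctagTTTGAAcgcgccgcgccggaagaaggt
Kif23: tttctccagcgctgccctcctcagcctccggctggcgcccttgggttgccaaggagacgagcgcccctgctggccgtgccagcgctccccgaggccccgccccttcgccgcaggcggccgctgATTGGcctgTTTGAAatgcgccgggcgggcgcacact
Kif20b: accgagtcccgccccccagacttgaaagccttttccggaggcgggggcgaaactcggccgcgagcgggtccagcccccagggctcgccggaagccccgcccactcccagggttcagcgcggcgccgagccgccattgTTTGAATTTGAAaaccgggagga
Kif18a: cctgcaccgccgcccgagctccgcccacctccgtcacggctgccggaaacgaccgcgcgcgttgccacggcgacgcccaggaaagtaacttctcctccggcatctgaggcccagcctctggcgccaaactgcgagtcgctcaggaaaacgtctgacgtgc
Kif3b: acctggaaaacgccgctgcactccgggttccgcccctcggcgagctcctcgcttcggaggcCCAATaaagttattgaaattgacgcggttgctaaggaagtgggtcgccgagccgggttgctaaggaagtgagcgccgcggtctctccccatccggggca

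TTTGAA lay in the promoters of 9 of the 11 matched mitotic genes, 1 of 10 transport genes and 2 of 10 other genes. Over the 27025 genes in the RefSeq table, the share was 20.2%. The transport match, in Kif1a, lay at a start well inside the gene, and its promoter near the gene's 5′ end held none. Starts matched for Kif2c, Kif14 and Kif27 also lay well inside the gene bounds of the count tables. In Kif11, Kif15 and Kif22 a match began 19, 19 and 17 bases before the start site, and in Kif23, Kif18b and Kif20b matches began at base 3, 4 and 8, counted from the start site as base 1. In the shorter window from 100 bases before to 50 after, the counts were 7 of 11, 1 of 10 and 2 of 10, against 9.2% of genes. CCAAT lay in 7 of 11 mitotic, 3 of 10 transport and 4 of 10 other genes, and in 41.1% of all genes. Both motifs shared a promoter in 6 of 11 mitotic genes, 0 of 10 transport genes and 2 of 10 other genes, against 8.0% of all genes. Kif18a held neither, Kif2b held CCAAT alone, and Kif23, which rose little, held both. A match is a description of letters, and binding was not measured.

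Transport kinesins did not move as a class. Kif5b, the heavy chain of conventional kinesin made in most tissues, had 232, 222 and 224 CPM in 5-FU+Saline, against 149, 156 and 150.2 CPM in Control. All 5-FU+Saline libraries were higher, by 1.49-fold (log2 0.58 ± 0.03, adjusted p 3.02e-25 in edgeR). Its relatives Kif5a and Kif5c, known mostly from neurons, were scarce. Kif5a had 1.85, 2.42 and 1.81 CPM in 5-FU+Saline, against 6.41, 5.87 and 5.55 CPM in Control, and was lower by 2.93-fold (log2 -1.55 ± 0.24, adjusted p 2.41e-08 in edgeR) with no overlap. Summed levels of 5 neuron markers were 6.20 to 8.84 CPM in 5-FU+Saline and 0.45 to 1.28 CPM in Control, with no count of Snap25, Syt1 or Stmn2 in either. Tubb3 alone averaged 6.61 ± 1.47 and 0.33 ± 0.14 CPM and carries most of that sum, while Map2 averaged 0.71 ± 0.26 and 0.56 ± 0.30 CPM. Kif5c averaged 0.69 ± 0.50 and 0.40 ± 0.04 CPM and was not called, with a 95% interval of the log2 difference between -0.45 and 1.97.

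Kinesins of the endosome and vesicle family went in different directions. Kif13b fell, with 45.9, 47.5 and 48.3 CPM in 5-FU+Saline against 70.7, 73.5 and 77.2 CPM in Control (log2 -0.64 ± 0.06, adjusted p 1.27e-16 in edgeR), and the groups did not overlap. Its close relative Kif13a, which carries endosomes, averaged 82.2 ± 4.26 CPM in 5-FU+Saline and 85 ± 3.04 in Control. It was not called, with an interval between -0.14 and 0.05. Kif1c rose by 0.23 ± 0.07 (adjusted p 0.00177 in edgeR), with 45.9 ± 0.88 CPM in 5-FU+Saline and 39.3 ± 0.80 in Control. Kif16b, which places early endosomes, rose by 0.17 (adjusted p 0.0137 in edgeR), and without Control replicate 3 the value was 0.10 and the call was lost with an adjusted p of 0.202. Kif1b, a carrier of mitochondria and vesicles, had a log2 difference of 0.13 and was not called. It passed without Control replicate 2 with 0.22 or without 5-FU+Saline replicate 2 with 0.20 (adjusted p 0.026 and 0.0424 in edgeR).

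Among the motors that also serve cilia, Kif17 fell to 23.3 ± 0.86 CPM in 5-FU+Saline, against 31.9 ± 1.51 in Control (log2 -0.45 ± 0.08, adjusted p 1.62e-06 in edgeR). Kif3c averaged 11.7 ± 1.20 and 20.1 ± 1.45 CPM and fell by 0.77 on the log2 scale. Exons of the opposite-strand genes 1110002L01Rik and Gm48512 cover 40.7% of Kif3c exon bases, so its reads cannot be told apart from theirs over that stretch. Kif3a and Kif3b form the motor pair that carries material along cilia. Kif3b was not called (log2 -0.06, interval -0.19 to 0.07). Kif3a had a log2 difference of -0.21 with an adjusted p of 0.038 in edgeR, and the call was lost without any one of Control replicates 2 and 3 and 5-FU+Saline replicates 1, 2 and 3, with values between -0.23 and -0.16.

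Of the other kinesins, Kif21b moved most in absolute level. This motor, known to limit microtubule growth in neurons and lymphoid cells, had 129.8, 121 and 124 CPM in 5-FU+Saline, against 215, 229 and 229 CPM in Control. Every 5-FU+Saline library lay well below every Control library, and the log2 difference was -0.84 ± 0.04 (adjusted p 2.15e-33 in edgeR). Kif2a, a depolymerase that works both in the spindle and in resting cells, averaged 99.4 ± 1.60 CPM in 5-FU+Saline and 67.7 ± 0.34 in Control, a rise of 0.55 ± 0.05. Exons of Dimt1 cover 19.2% of its exon bases. Kif24, which keeps cilia from growing on centrioles, rose by 0.57 at 23.4 ± 1.10 against 15.8 ± 0.78 CPM, and Kif21a, a relative of Kif21b, by 0.77 at 8.55 ± 0.69 against 4.94 ± 0.91 CPM. Kif9, a motor of moving cilia, fell by 0.70 on the log2 scale at 3.28 ± 0.43 CPM in 5-FU+Saline against 5.28 ± 1.01 in Control. Kif19a and Kif6, also ciliary, were under 4 CPM in each group and were lower by 1.15 and 1.28 on the log2 scale. The call of Kif6 was lost without Control replicate 1, Control replicate 2, 5-FU+Saline replicate 1 or 5-FU+Saline replicate 2, with values between -1.21 and -0.83, and without 5-FU+Saline replicate 3 its value was -2.30. Kif7, a Hedgehog pathway motor at the tip of cilia, was not called, with 11.1 ± 0.43 CPM in 5-FU+Saline and 10.97 ± 0.54 in Control. Exons of 9330171B17Rik and Ticrr on the other strand cover 20.3% of Kif7 exon bases.

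**Figure D2:**
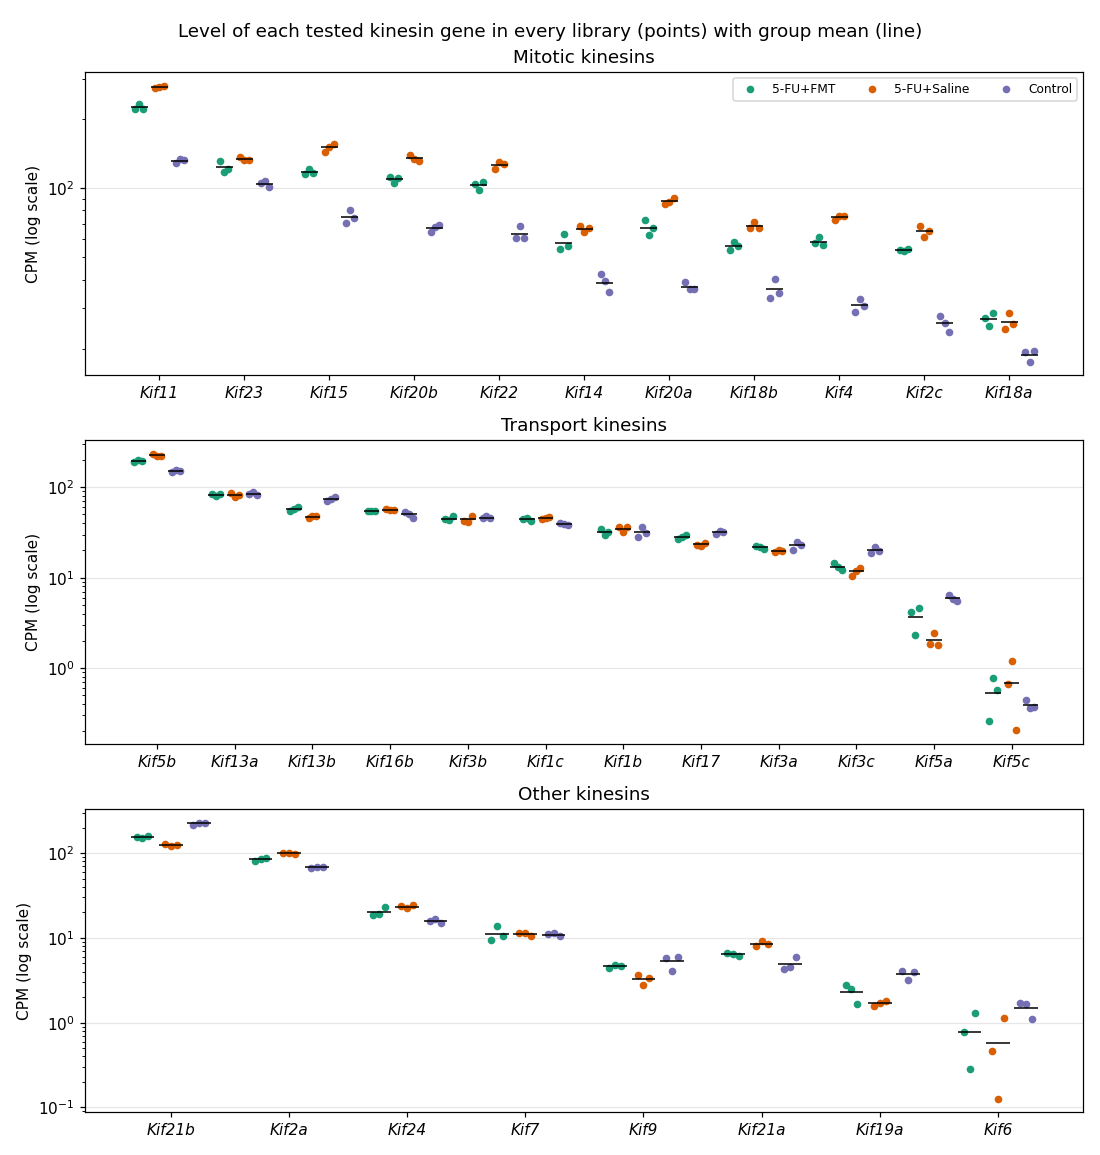
Level of kinesin genes in each of the 9 libraries (CPM, log y axis), with 5-FU+FMT, 5-FU+Saline and Control from left to right and bars at the group means. Mitotic kinesins such as Kif11 are highest in 5-FU+Saline, at 276 CPM on average, and lowest in Control, at 132 CPM, while Kif21b runs the other way with 125 and 224 CPM.

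The comparison of 5-FU+FMT with 5-FU+Saline asked whether FMT changed the kinesins of 5-FU-treated mice. Of the mitotic kinesins, 10 of 11 were lower in 5-FU+FMT and none was higher, where 19.2% of all genes were lower and 17.7% higher. Kif18a was the exception. Log2 fold changes lay between -0.38 and 0.04 with a median of -0.29, against 0.01 over all genes. None of the 31 tested kinesins was higher or lower by at least 2-fold, as 3.53% and 1.61% of all genes were, and all but 14 of the 31 were called in either direction, against 36.9% of all genes. Of 12 transport kinesins, 3 were higher and 1 lower with a median of 0.02, and of 8 others 1 was higher and 2 lower with a median of 0.17. Libraries did not overlap for 10 mitotic, 5 transport and 4 other kinesins, and for 46.3% of all genes. Both groups share the 5-FU dose, so this comparison holds no FMT without 5-FU.

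Kif11 had 221, 233 and 221 CPM in 5-FU+FMT, against 272, 276 and 279 CPM in 5-FU+Saline. The highest 5-FU+FMT library lay well below the lowest 5-FU+Saline library, and the log2 difference was -0.29 ± 0.03 (adjusted p 1.95e-12 in edgeR). Among the mitotic kinesins, Kif20a fell most, to 72.6, 62.5 and 67.3 CPM in 5-FU+FMT, against 85.01, 87.2 and 90.9 CPM in 5-FU+Saline, a log2 difference of -0.38 ± 0.05 with an adjusted p of 1.67e-08 in edgeR and no overlap. Kif4 followed with a log2 difference of -0.35, Kif15 with -0.35, Kif20b with -0.30, Kif22 with -0.29, Kif18b with -0.29 and Kif2c with -0.27. These 6 had group means of 53.8 to 118 CPM in 5-FU+FMT and 65.0 to 150.3 CPM in 5-FU+Saline.

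The smallest falls were the least steady. Kif14 averaged 58.0 ± 4.54 CPM in 5-FU+FMT and 66.6 ± 2.16 in 5-FU+Saline (log2 -0.20 ± 0.06, adjusted p 0.0062 in edgeR), and without 5-FU+FMT replicate 1 the adjusted p was 0.0665. Kif23 had 132, 118 and 122 CPM in 5-FU+FMT, against 136, 133 and 132 CPM in 5-FU+Saline, groups that all but touch. Its log2 difference of -0.11 ± 0.04 passed with an adjusted p of 0.0286 in edgeR, but not without 5-FU+Saline replicate 1 with 0.101, 5-FU+FMT replicate 2 with 0.203 or 5-FU+FMT replicate 3 with 0.102. Kif18a had 27.3, 25.2 and 28.7 CPM in 5-FU+FMT and 24.5, 28.7 and 25.7 CPM in 5-FU+Saline. The libraries of both groups were mixed, and the interval of the log2 difference, between -0.13 and 0.21, lay above the fitted -0.29 of Kif11. As a share of Kif11 counts, Kif18a stood at 10.8 to 13.02% in 5-FU+FMT and 9.02 to 10.4% in 5-FU+Saline.

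Among transport kinesins, Kif5b fell to 192, 202 and 193 CPM in 5-FU+FMT, against 232, 222 and 224 CPM in 5-FU+Saline (log2 -0.21 ± 0.03, adjusted p 3.51e-07 in edgeR), with all 5-FU+FMT libraries lower. Kif13b rose, with 55.3, 57.5 and 60.7 CPM in 5-FU+FMT against 45.9, 47.5 and 48.3 CPM in 5-FU+Saline (log2 0.29 ± 0.06, adjusted p 3.72e-05 in edgeR), and Kif17 rose by 0.28 ± 0.08 (adjusted p 0.00463 in edgeR). Kif5a had 4.18, 2.32 and 4.62 CPM in 5-FU+FMT, against 1.85, 2.42 and 1.81 CPM in 5-FU+Saline. It passed with a log2 difference of 0.88 ± 0.25 (adjusted p 0.00314 in edgeR), although 1 of the 5-FU+FMT libraries lay below the highest of 5-FU+Saline. The other 8 transport kinesins tested were not called, with log2 differences between -0.34 for the scarce Kif5c and 0.17 for Kif3c. The value of Kif5c was 0.001 without 5-FU+FMT replicate 1 and -0.81 without 5-FU+Saline replicate 3. Intervals were narrowest for Kif13a, between -0.08 and 0.12, and they lay between -0.28 and 0.04 for Kif1b, -0.18 and 0.08 for Kif1c, -0.17 and 0.07 for Kif16b, -0.04 and 0.33 for Kif3a, and -0.11 and 0.16 for Kif3b.

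Of the other kinesins, Kif21b rose, with 154, 152 and 161 CPM in 5-FU+FMT against 129.8, 121 and 124 CPM in 5-FU+Saline, a log2 difference of 0.32 ± 0.04 (adjusted p 5.5e-11 in edgeR) with no overlap. Kif2a fell by 0.23 ± 0.05 on the log2 scale, at 84.6 ± 3.35 against 99.4 ± 1.60 CPM. Kif21a fell by 0.41 (adjusted p 0.0348 in edgeR), at 6.43 ± 0.32 against 8.55 ± 0.69 CPM. That call was lost without 5-FU+Saline replicate 2 or 3, or without 5-FU+FMT replicate 1, 2 or 3, with values between -0.44 and -0.35. Kif24 with -0.22, Kif9 with 0.50, Kif19a with 0.44, Kif6 with 0.37 and Kif7 with 0.01 on the log2 scale were not called. The 0.37 of Kif6, which is under 2 CPM in each group, ran between -0.17 without 5-FU+FMT replicate 3 and 1.39 without 5-FU+Saline replicate 3, and was -0.07 without 5-FU+Saline replicate 2, so its sign is not settled. Of the others, Kif24 passed without 5-FU+FMT replicate 3 with -0.31 (adjusted p 0.0176 in edgeR) and Kif9 without Control replicate 2 with an adjusted p of 0.0495.

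**Figure D3:**
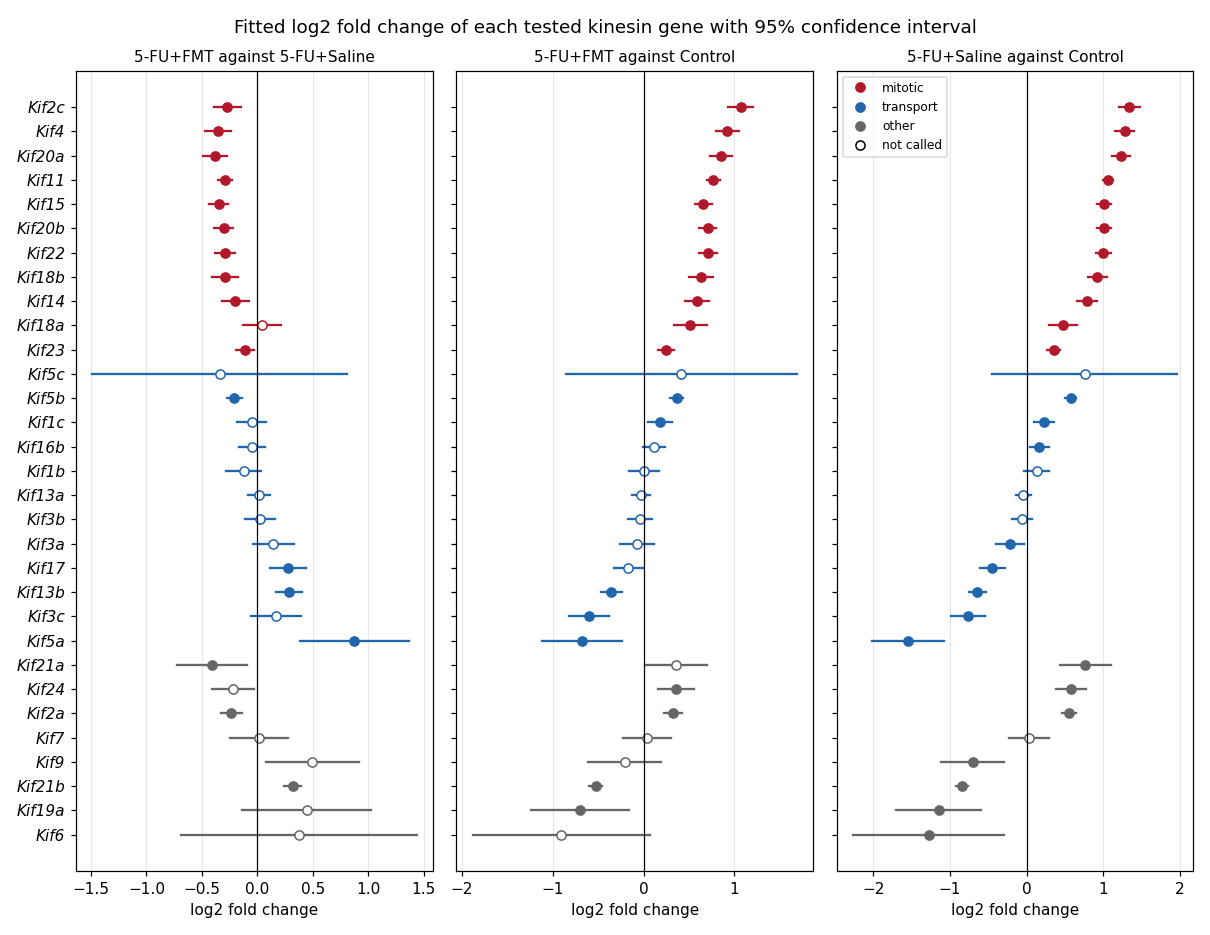
Log2 fold change of the 31 tested kinesins (x axis, with 95% intervals) in panels from left to right for 5-FU+FMT against 5-FU+Saline, 5-FU+FMT against Control, and 5-FU+Saline set against Control, coloured by class, with open points where a gene was not called. The mitotic kinesins lie to the right of zero in the middle and right panels, with medians of 0.71 and 1.01, and Kif18a is the mitotic gene at 0.04 in the left panel.

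In 5-FU+FMT against Control, all 11 tested mitotic kinesins were again higher, where 25% of all genes were higher and 21.6% lower. Their log2 fold changes lay between 0.25 and 1.07 with a median of 0.71, against -0.01 over all genes, and 1 was higher by at least 2-fold, as were 3.48% of all genes. No kinesin was called lower by at least 2-fold, as 3.2% of all genes were, and all but 11 of the 31 were called in either direction, against 46.6% of all genes. That 1 gene was Kif2c, with 53.9, 53.4 and 54.2 CPM in 5-FU+FMT against 27.7, 26.0 and 23.8 CPM in Control (log2 1.07 ± 0.07, adjusted p 1.02e-22 in edgeR). All 11 had 5-FU+FMT libraries that lay above every Control library. Over all genes, 52.7% had groups that did not overlap, in either direction. Log2 differences were 0.92 for Kif4, 0.86 for Kif20a, 0.77 for Kif11, 0.71 for Kif22, 0.70 for Kif20b, 0.66 for Kif15, 0.63 for Kif18b, 0.59 for Kif14, 0.52 for Kif18a and 0.25 for Kif23. Kif18a averaged 27.1 ± 1.78 CPM in 5-FU+FMT and 18.8 ± 1.07 in Control, and Kif23 124 ± 7.11 and 105 ± 3.11 CPM.

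Transport kinesins counted 2 higher and 3 lower of 12 in 5-FU+FMT against Control, with a median of -0.03, and other kinesins 2 higher and 2 lower of 8, with a median of -0.08. Kif5b averaged 196 ± 5.27 CPM in 5-FU+FMT and 152 ± 3.88 in Control, a log2 difference of 0.37 ± 0.04 (adjusted p 9.88e-15 in edgeR). Kif1c had 0.18 with an adjusted p of 0.0231, and lost the call without Control replicate 3, 5-FU+FMT replicate 1 or 5-FU+FMT replicate 2, with values of 0.16, 0.17 and 0.15. Kif13b fell by 0.35 and Kif3c by 0.60 on the log2 scale. Kif5a fell by 0.68, but without 5-FU+FMT replicate 2, its lowest library, the value was -0.43 with an adjusted p of 0.142 in edgeR. Kif17, with -0.17, and Kif16b, with 0.12, were not called. Kif16b passed without Control replicate 1 with 0.17 and with no filter on low counts with 0.16 (adjusted p 0.0389 and 0.0441 in edgeR). Kif17 passed under upper-quartile scaling with -0.23 and under the stricter filter with -0.20 (adjusted p 0.0129 and 0.0295 in edgeR). Kif13a, Kif1b, Kif3a, Kif3b and Kif5c were not called either, with log2 differences of -0.03, 0.01, -0.07, -0.04 and 0.42, and the last ran between 0.06 without 5-FU+FMT replicate 2 and 0.76 without 5-FU+FMT replicate 1.

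Among other kinesins, Kif21b averaged 156 ± 4.70 CPM in 5-FU+FMT and 224 ± 8.04 in Control, a log2 difference of -0.53 ± 0.04 (adjusted p 2.37e-21 in edgeR). Kif2a rose by 0.32 and Kif24 by 0.36, at 84.6 ± 3.35 and 20.2 ± 2.32 CPM in 5-FU+FMT against 67.7 ± 0.34 and 15.8 ± 0.78 CPM in Control. Kif19a fell by 0.70 on the log2 scale with an adjusted p of 0.0271 in edgeR, which was lost without Control replicate 1, Control replicate 3 or 5-FU+FMT replicate 3, with values between -0.66 and -0.51. Kif21a, with 0.36, was not called but passed without Control replicate 3 with 0.55 (adjusted p 0.0212 in edgeR). Kif6, with -0.91, was not called but passed without 5-FU+FMT replicate 3 with -1.45 (adjusted p 0.0464 in edgeR). Kif9 and Kif7, with -0.21 and 0.04, were not called.

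Over the 3 comparisons, which share their groups, 10 of 11 mitotic kinesins were called in each, as were 3 of 12 transport kinesins (Kif5b, Kif13b and Kif5a) and 2 of 8 others (Kif21b and Kif2a). Over all genes, 27.7% were called in all 3. Called in none were Kif13a, Kif1b, Kif3b, Kif5c and Kif7. Kif5b and Kif2a stood in the order of the mitotic kinesins, highest in 5-FU+Saline and lowest in Control, while Kif13b, Kif5a and Kif21b stood in the opposite order. Single genes weigh on the class sums. Among the other kinesins, Kif21b made 37.6% of RNA per kilobase in 5-FU+FMT, 30.2% in 5-FU+Saline and 50% in Control. Kif2a made 39.0%, 45.9% and 28.8% in the same groups. Kif5b made 32.4% of transport kinesin RNA per kilobase in 5-FU+FMT, 36.9% in 5-FU+Saline and 26.1% in Control. Without it, the transport sum was 384, 368 and 408 CPM in these groups, against 579.7, 594 and 559.6 CPM with it, so the order of the groups turned.

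Kinesin motors and subunits with other names were read beside the members. Cenpe, the large motor that carries chromosomes to the spindle equator, averaged 115 ± 4.14 CPM in 5-FU+FMT, 143 ± 4.36 in 5-FU+Saline and 58.0 ± 1.25 in Control. It was called in each comparison, with a log2 difference of 1.31 in 5-FU+Saline relative to Control, and of -0.31 and 1.00 in 5-FU+FMT relative to 5-FU+Saline and to Control. Kifc1, which pulls spindle poles together, followed with 0.93, -0.31 and 0.62, but its reads may be split with its near-identical copy Kifc5b, so that its level is uncertain. Kifc2, known from neurons, went the other way with -1.30, 0.63 and -0.66, at 5.00 ± 1.47, 3.18 ± 0.81 and 7.93 ± 0.78 CPM. Of the 12 such genes, 3 were higher and 2 lower in 5-FU+Saline than in Control. In 5-FU+FMT, 2 were higher and 3 lower than in 5-FU+Saline, and 4 higher and 2 lower than in Control. Over all genes, 65.5% were called in 5-FU+Saline against Control, and in 5-FU+FMT 36.9% were called against 5-FU+Saline and 46.6% against Control. Klc4, a light chain of conventional kinesin, fell by 0.42 on the log2 scale in 5-FU+Saline against Control and by 0.25 in 5-FU+FMT against Control. Stard9, a kinesin of the centrosome, rose by 0.23 in both comparisons of 5-FU+FMT. Klc1, the light chain that loads cargo on Kif5b, was not called, with 98.4 ± 3.56 CPM in 5-FU+FMT, 101 ± 4.63 in 5-FU+Saline and 100.1 ± 4.57 in Control, and neither was Kifap3, the third subunit of the Kif3a and Kif3b motor.

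Most partners of the mitotic kinesins were highest in 5-FU+Saline. Of 20 spindle and midzone genes, 19 were higher and 1 lower in 5-FU+Saline against Control, with a median log2 difference of 1.12 and 16 higher by at least 2-fold. Over all genes, 32.8% were higher, 32.7% lower and 6.51% higher by at least 2-fold. In 5-FU+FMT, 1 was higher and 18 lower than in 5-FU+Saline with a median of -0.32, and 19 were higher and 1 lower than in Control with a median of 0.79. The all-gene shares of higher and lower calls were 17.7% and 19.2% relative to 5-FU+Saline, and 25% and 21.6% relative to Control. Mki67, the coat protein of mitotic chromosomes used as a marker of dividing cells, averaged 795 ± 4.14 CPM in 5-FU+FMT, 991 ± 10.01 in 5-FU+Saline and 443 ± 15.0 in Control. Top2a, which untangles sister chromosomes, had log2 differences of 1.36, -0.40 and 0.96 in the 3 comparisons. The exception was Numa1, which focuses spindle poles and lies in the nucleus of resting cells, with -0.37, 0.15 and -0.22. The 18 genes lower in 5-FU+FMT than in 5-FU+Saline left out Cit, the citron kinase that Kif14 brings to the midbody, with a log2 difference of -0.05 (interval -0.15 to 0.05).

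Partners of transport kinesins went in both directions. Of the adaptors, 13 were tested. In 5-FU+Saline, 4 of them were higher and 6 lower than in Control (median 0.04), where 65.5% of all genes were called. In 5-FU+FMT, 3 were higher and 1 lower than in 5-FU+Saline (median 0.01), and 1 was higher and 6 were lower than in Control (median 0.04), where 36.9% and 46.6% of all genes were called. Mapk8ip3, which links conventional kinesin to its cargo, fell to 140 ± 6.39 CPM in 5-FU+Saline, against 221 ± 4.29 in Control, and stood at 168 ± 1.08 in 5-FU+FMT. Madd, an adaptor of vesicle kinesins, had log2 differences of -0.43, 0.23 and -0.20. Trak1, the mitochondrial adaptor of Kif5b, had 0.21 in 5-FU+Saline against Control and -0.13 in 5-FU+FMT against 5-FU+Saline, and Arl8b, which docks lysosomes on kinesins, had 0.23 in 5-FU+Saline against Control and 0.14 in 5-FU+FMT against Control. The opposite motor, dynein, with its dynactin helper, had 10 of 21 genes higher and 5 lower in 5-FU+Saline than in Control (median 0.08). In 5-FU+FMT, 1 was higher and 6 were lower than in 5-FU+Saline (median -0.06), and 6 were higher and 5 lower than in Control (median 0.03). These counts stand beside the same all-gene shares of 65.5%, 36.9% and 46.6%. Nde1, a dynein regulator active in mitosis, had log2 differences of 0.71, -0.21 and 0.51, whereas its relative Ndel1 had -0.49 in 5-FU+Saline against Control and -0.40 in 5-FU+FMT against Control. The light chain Dynll1 had 0.74, -0.31 and 0.43, Dynll2 had -0.20 in 5-FU+FMT against 5-FU+Saline, and the dynactin subunit Dctn3 had -0.83, 0.23 and -0.60.

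**Figure D4:**
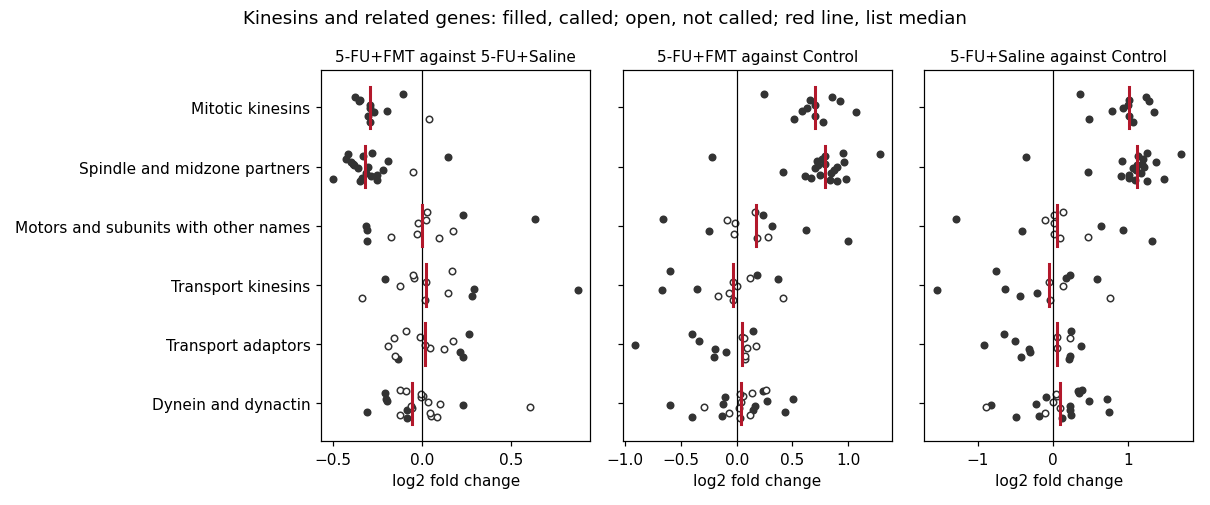
Log2 fold change (x axis) of each tested gene (points, open where not called) with the median (red line) in the mitotic and transport kinesins and in 4 lists of related genes, with a panel for each of the 3 comparisons. Spindle and midzone partners lie near the mitotic kinesins, at medians of -0.32, 0.79 and 1.12 from left to right, while transport adaptors and dynein genes centre near 0.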

How the data were processed

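Gene counts per library were deposited by the authors as featureCounts tables. The submitters' processing notes name the tools Trim Galore (0.6.5), HISAT2 (2.2.1), SAMtools and featureCounts (2.0.1) and the build mm10. The file headers say that read pairs were counted over exons per gene of GENCODE M25, without a strand option and without an option for reads that touch several genes, so counts of overlapping genes are uncertain. IDs were named from reference tables (55141 of 56262), and biotypes came from GENCODE M21.

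From the counts, genes were filtered with filterByExpr (16595 left), scaled by TMM and fitted in edgeR 4.0.16 (quasi-likelihood, 3 groups together, no block, R 4.3.3), with Benjamini-Hochberg adjustment over all genes tested. The fit was tested on simulated data. Log2 fold changes are fitted values, CPM and RPKM use TMM-scaled library sizes, and the ± beside a log2 value is its SE. Intervals are 95%. DESeq2 1.42.0, limma-voom (limma 3.58.1), other scalings, filters and subsets were alternatives. Libraries within a group differed by more than counting noise (chi-square per degree of freedom 2.14 to 2.56 in 9 pairs), and none was merged. Every mitotic and transport member tested is named, as are other members called with a mean of at least 5 CPM, and from each partner list the pair with the smallest p in each direction and comparison. Kif7, Kif6, Kif19a, Racgap1, Cit, Klc1 and Kifap3 were named beyond this rule after their values were seen. 1 marker gene of the B lineage is not reported here. The members, classes, lists and tests were chosen with earlier results of these data known.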

Additional observations from a re-analysis of the deposited data

How the results depend on the processing

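Of 93 pairs of a tested member and a comparison, 76 kept their side of the threshold under each alternative run, up to 17 a pair. Those of them that were called also kept their direction, while some that were not called changed sign, such as Kif7 in 5-FU+FMT against 5-FU+Saline. The 17 other pairs involved 14 members, and none reversed a call. Upper-quartile scaling put the median over all genes at -0.10, 0.02 and -0.07 in the 3 comparisons and gave mitotic medians of 0.93 in 5-FU+Saline against Control, -0.28 in 5-FU+FMT against 5-FU+Saline and 0.64 in 5-FU+FMT against Control. It gave transport medians of -0.13 and -0.10 in both comparisons with Control, 2 other kinesins higher in 5-FU+FMT than in 5-FU+Saline, and 1 transport kinesin higher in 5-FU+FMT than in Control. RLE scaling and DESeq2 each gave a mitotic median of -0.31 in 5-FU+FMT against 5-FU+Saline, where DESeq2 called 1 other kinesin lower. With no filter on low counts, the mitotic medians were 1.05 and 0.75 and the transport medians -0.002 and 0.014 against Control (5-FU+Saline first), and 1 other kinesin was lower in each comparison of 5-FU+FMT. The stricter filter gave mitotic medians of 0.96, -0.28 and 0.68 in the order above and a transport median of -0.10 in 5-FU+Saline against Control. It left 1 other and 5 of all kinesins lower in 5-FU+Saline, and 1 other kinesin lower in 5-FU+FMT, against Control, in part because scarce members were not tested.

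With Kif2a among the mitotic and Kif21a and Kif21b among the transport kinesins, other kinesins had 1 higher in 5-FU+Saline against Control, 0 higher and 0 lower in 5-FU+FMT against 5-FU+Saline, and 1 higher and 1 lower in 5-FU+FMT against Control. Transport kinesins then had 2 lower in 5-FU+FMT against 5-FU+Saline, and the mitotic median in 5-FU+FMT against Control was 0.68. Leaving out each library in turn gave mitotic medians of 0.98 to 1.05 in 5-FU+Saline against Control, -0.30 to -0.28 in 5-FU+FMT against 5-FU+Saline and 0.68 to 0.73 in 5-FU+FMT against Control. In 5-FU+FMT against 5-FU+Saline, the transport median was then -0.018 to 0.061, with 1 to 2 other kinesins higher and 1 to 2 lower. In 5-FU+FMT against Control, 1 to 3 transport kinesins were higher, and 2 to 4 other kinesins were higher and 1 to 2 lower. The cause of these shifts was not tested. With the replicate number as a block, the calls of 11 mitotic kinesins higher, 10 lower and 11 higher in the 3 comparisons did not change. Libraries of the same number did not deviate together (correlations of -0.02 to 0.02 over 9 pairs), so the numbers give no pairing. Kif23, Kif16b, Kif1c, Kif3a, Kif21a, Kif19a and Kif6 were called in at least 1 comparison but lost a call in several alternatives, and members under 5 CPM are limited by depth.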
